A study of Mus musculus with 12 samples.

Results

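The axon guidance ligands and receptors are 71 of the 31053 genes in the count matrix. They were taken by name: every Slit, Robo, netrin and netrin-G, Unc5, semaphorin, plexin, ephrin and Eph receptor symbol in the gene list of the matrix, together with Dcc, Nrp1 and Nrp2. They comprise 36 ligands and 35 receptors. Their transcripts were measured in nuclei of the caudal forelimb area of the right primary motor cortex by droplet-based single-nucleus RNA sequencing, which counts each captured RNA molecule once through a unique molecular identifier (UMI). The 3 trained mice (2, 4 and 6) pressed a lever with the left paw under head fixation on days 11 to 13, 100 trials a session, and received part of their 1 mL of water a day as reward. The 3 control mice (1, 3 and 5) were given their 1 mL a day in the home cage. All 6 mice were 13 weeks old and had spent the first 10 days on restricted water without the task, so water restriction is common to both groups. Each mouse is 1 replicate, and its shallow and deep sequencing runs are joined in the matrix.

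Guidance ligands are best known for steering growing axons, and many stay expressed in the adult cortex, where they act on synapses, glia and vessels. Slits are secreted ligands that repel axons through Robo receptors. Netrin-1 attracts through Dcc and repels through Unc5 receptors. Semaphorins signal through plexins, and the secreted class 3 members mostly need a neuropilin as co-receptor. Ephrins are held on the cell surface, by a lipid anchor in the A class and a transmembrane segment in the B class, and signal to Eph receptor tyrosine kinases on the neighbouring cell.

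Promoters are shown for 4 members whose highest class was non-neuronal, because each pair shares its highest class. Robo4 and Sema3g were highest in endothelial nuclei, and Plxnb3 and Unc5b in oligodendrocyte nuclei. The sequences are from RefSeq on build GRCm38.p6 and run 5′ to 3′ from 250 bases before to 50 bases after the annotated start. The table gave such a window for 61 of the 71 members. Robo4 lies at chr9:37401722-37402021, plus strand, and Sema3g at chr14:31217623-31217922, plus strand. Capitals mark the ETS factor core GGAAG or its reverse complement CTTCC, which 71.4% of all promoter windows of 300 bases hold.
Robo4: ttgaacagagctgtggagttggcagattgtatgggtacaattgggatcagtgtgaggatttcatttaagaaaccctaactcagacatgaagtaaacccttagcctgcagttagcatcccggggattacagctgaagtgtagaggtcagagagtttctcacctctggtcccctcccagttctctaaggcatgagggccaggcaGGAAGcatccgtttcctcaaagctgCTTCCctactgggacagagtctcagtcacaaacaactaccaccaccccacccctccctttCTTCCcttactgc
Sema3g: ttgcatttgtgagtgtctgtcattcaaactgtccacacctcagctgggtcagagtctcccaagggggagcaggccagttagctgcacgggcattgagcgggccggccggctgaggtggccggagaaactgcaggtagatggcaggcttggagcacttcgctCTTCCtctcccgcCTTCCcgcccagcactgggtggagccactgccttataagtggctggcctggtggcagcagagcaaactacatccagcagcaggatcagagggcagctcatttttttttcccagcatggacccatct
The longer letters CCGGAAG, held by 8.86% of windows on either strand and including the shorter core, were in neither of these windows. Plxnb3 lies at chrX:73756853-73757152, plus strand, and Unc5b at chr10:60831532-60831831, minus strand. Capitals mark the SOX factor cores ACAAAG and ACAATG or their reverse complements CTTTGT and CATTGT, held by 18.7% and 12.6% of windows.
Plxnb3: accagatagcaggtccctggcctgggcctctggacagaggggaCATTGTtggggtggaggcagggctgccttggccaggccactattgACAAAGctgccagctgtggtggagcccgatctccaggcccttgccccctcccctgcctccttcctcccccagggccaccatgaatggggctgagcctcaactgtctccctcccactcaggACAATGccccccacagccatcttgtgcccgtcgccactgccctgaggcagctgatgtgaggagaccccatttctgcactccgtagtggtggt
Unc5b: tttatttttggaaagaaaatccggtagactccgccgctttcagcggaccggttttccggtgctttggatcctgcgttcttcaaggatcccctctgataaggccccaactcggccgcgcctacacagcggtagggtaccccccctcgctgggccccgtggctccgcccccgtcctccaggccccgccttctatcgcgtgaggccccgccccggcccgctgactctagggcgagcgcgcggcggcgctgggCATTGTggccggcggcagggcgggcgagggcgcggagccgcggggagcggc
These matches are descriptions of the letters and mark no tested binding site.

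After quality filters and removal of 2391 doublets, 49292 nuclei were kept and grouped into classes without using any guidance gene. A cluster of 406 nuclei, 393 of them from trained mouse 6, was left out of all classes but stays in the sums over all nuclei. Its median UMIs per nucleus were 0.193 of those of all nuclei of the same mouse (median over mice). The 19 classes that could be fitted were 8 glutamatergic, 4 GABAergic and 7 non-neuronal, from 286 endothelial to 6069 astrocyte nuclei over the 6 mice. Each name stands for "-like": IT, ET, NP and CT are intratelencephalic, extratelencephalic, near-projecting and corticothalamic neurons, and cluster 6 is a glutamatergic cluster led by Scn7a, Hgf and Cpne4 that met no name. The summed level of the glutamatergic marker list averaged 929.6 to 1317 CPM (counts scaled to a common library total, with TMM factors) in glutamatergic classes, 41.1 to 83.9 in GABAergic ones and 114 to 326 in non-neuronal ones. Of the 18 marker lists of named classes, 15 were highest in their own class. Among these the L4/5 IT list had a narrow lead, at 2737 CPM (2248 to 3633 over mice) in L4/5 IT nuclei. It was at 2570 CPM (2254 to 2957) in L5 IT, 2491 CPM in oligodendrocyte precursor, 2442 CPM in cluster 6 and 2314 CPM in astrocyte nuclei. The L6 CT list was at 4644 CPM in L6 CT and 2871 CPM in L5/6 NP nuclei. The L5 IT list was higher in L5/6 NP (805 CPM) than in L5 IT nuclei (393 CPM), the L6 IT list higher in Sst (643 CPM) than in L6 IT nuclei (414 CPM), and the L5 ET list higher in endothelial (416 CPM) than in L5 ET nuclei (255 CPM). The GABAergic list summed to 3750.3 CPM in oligodendrocyte precursor and 1891 CPM in oligodendrocyte nuclei, beside 1936 CPM in Sst nuclei and 8087 to 11776 CPM in the other GABAergic classes. The part of these lists in the class differences below was not tested. Low levels of neuronal genes in non-neuronal classes stand beside the level of the glutamatergic list there, and its part in them was not tested. The astrocyte marker list summed to 1903 CPM in vascular and leptomeningeal nuclei and 10934 CPM in astrocyte nuclei. No cluster was named by the list of Sncg interneuron markers. That list summed to 1397 CPM in Vip, 579 CPM in Lamp5 and 63.1 to 302 CPM in the other classes. The part of Sncg interneurons in the Vip values was not tested. The matrix held 46798359 to 91495029 UMIs per mouse, with medians of 5215 to 7205 UMIs per kept nucleus. The mitochondrial share of UMIs was 0.0561% in trained mouse 2 and 0.0183% to 0.0290% in the others. Of 51374 barcode sequences, 307 (0.598%) occurred in more than 1 mouse.

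The guidance genes differed widely between cell classes. Each class was set against the mean of the other 18 in 1 edgeR quasi-likelihood fit with mouse as a block, and a difference was called at an adjusted p under 0.05 and a log2 difference of at least 1. Of 1292 member by class tests, 358 were higher and 348 lower, 706 in all, whereas 23.1% of all gene by class tests were called. The fit held 68 members. Of these, Robo4, Sema3b and Sema3g passed the filter on low counts only through their highest class, and the other 65 gave 351 higher and 348 lower calls in 1235 tests. Unc5cl, Efna4 and Epha1 were too low for the fit, and Unc5cl was at or under 1 CPM in every class. Every fitted member was called in at least 1 class, 66 of them higher somewhere and 3 higher in exactly 1 class. Those counts per gene include Robo4, Sema3b and Sema3g, and Robo4 is among the 3 higher in exactly 1 class. The share of all genes called in at least 1 class is not given, and the 23.1% is a share of single tests. The counts per gene are therefore no result about the guidance genes in particular. The highest class was neuronal for 37 members and non-neuronal for 34.

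Glutamatergic IT classes carried more members above the other classes than below, while astrocytes, oligodendrocytes and microglia had more below than above. In L4/5 IT nuclei, 33 members were higher and 12 lower, with a median log2 difference of 0.93 over the 68 members and -0.01 over all genes. Here 18.3% of all genes were called. In oligodendrocyte nuclei 12 were higher and 36 lower, with medians of -1.25 over members and -0.02 over all genes, of which 33.0% were called. Microglia and macrophage nuclei had 11 higher and 38 lower members beside 36.8% of all genes called. Oligodendrocyte precursor nuclei, the proliferating relatives of oligodendrocytes, had 22 higher and 16 lower, beside 23.6%. L2/3 IT, L5 IT, L6 IT and L5 ET nuclei had 21, 24, 23 and 25 higher and 9, 11, 9 and 14 lower members, in that order, beside 20.3%, 19.3%, 18.9% and 23.2% of all genes called. L6 CT, L5/6 NP and cluster 6 nuclei had 23, 19 and 23 higher and 15, 13 and 11 lower members, in that order, beside 18.1%, 17.9% and 23.1% of all genes called. Lamp5, Vip, Sst and Pvalb nuclei had 18, 15, 15 and 16 higher and 15, 13, 16 and 20 lower members, in that order, beside 17.0%, 16.4%, 17.3% and 21.0% of all genes called. Astrocyte, endothelial, pericyte and smooth muscle and vascular and leptomeningeal nuclei had 13, 14, 11 and 20 higher and 31, 22, 26 and 21 lower members, in that order, beside 30.8%, 29.9%, 25.6% and 28.8% of all genes called. Over all 19 classes, between 11 and 33 members were higher and between 9 and 38 lower. Levels below are compared between classes within a gene, never between genes, because they are not scaled by length.

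**Figure D1:**
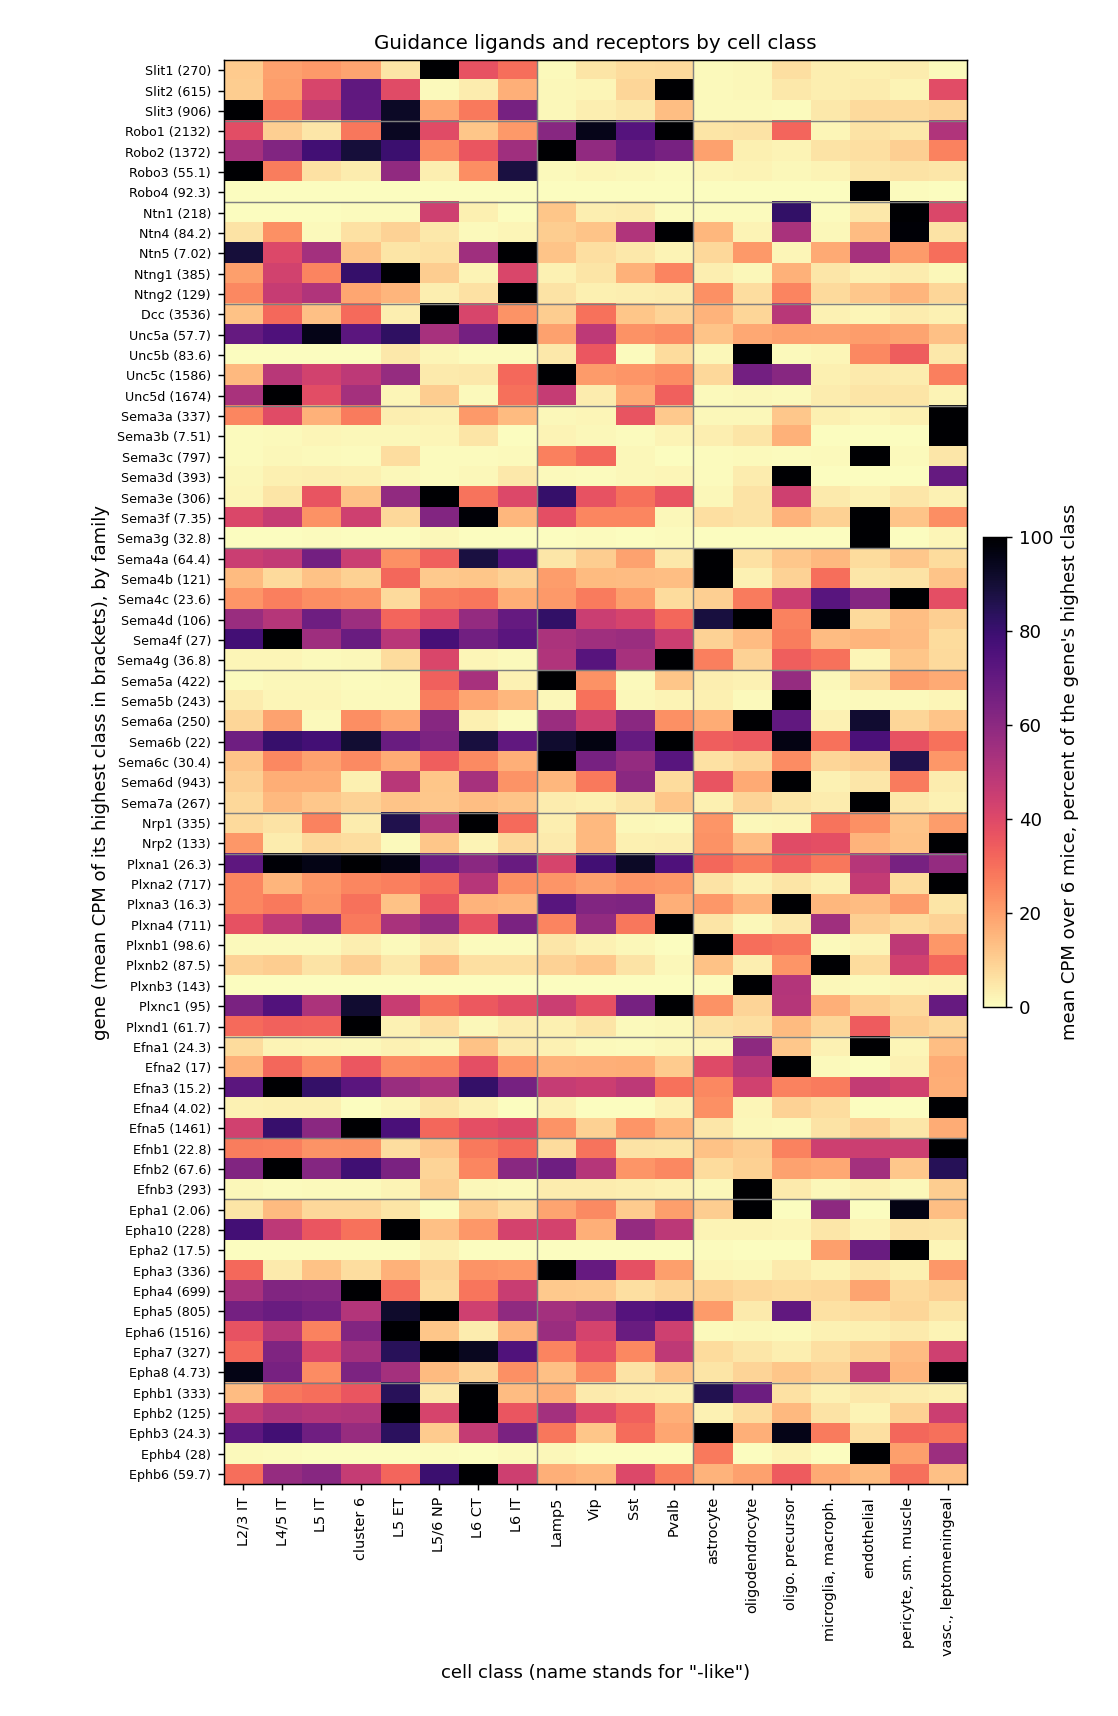
Heat map of the guidance genes above 1 CPM in at least 1 class, which leaves out Unc5cl (rows, by family), in 19 cell classes (columns). Colour gives each gene's mean CPM over 6 mice relative to its own highest class, whose mean CPM stands in brackets after the gene name. Robo4, Sema3g and Plxnb3 fill 1 or 2 columns, while Robo2, Dcc and Epha5 fill many.

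The 3 Slit genes had different neuronal sources. Slit1 (chr19:41600257-41743665, mm10) was highest in L5/6 NP nuclei, at 269.7 ± 48.9 CPM (lowest 221, median 261, highest 355) over 6 mice, a log2 difference from the other classes of 4.11 ± 0.08 (edgeR, adjusted p = 5.14e-81). Its next class, L6 CT, was at 99.5 ± 20.9 CPM, and no mouse of that class reached the L5/6 NP range. Slit2 (chr5:47983138-48307733) was highest in Pvalb nuclei, at 615 ± 80.7 CPM (lowest 500.4, median 621, highest 705), a log2 difference from the other classes of 4.0 ± 0.09 (edgeR, adjusted p = 2.14e-72). Cluster 6 followed at 435 ± 55.6 CPM, with overlapping ranges, while the other 3 GABAergic classes were between 8.79 and 51.4 CPM. Slit2 in vascular and leptomeningeal nuclei ran from 56.7 to 484 CPM among mice, the widest spread of the gene's higher classes. Slit3 stood in glutamatergic nuclei, led by L2/3 IT (906 ± 87.6 CPM) and L5 ET (842 ± 144 CPM), whose ranges overlapped, and it was at 5.12 to 8.93 CPM in astrocytes, oligodendrocytes and their precursors.

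Among the receptors, Robo1 and Robo2 were broad and Robo3 and Robo4 narrow. Robo1 was highest in Pvalb (2132 ± 264 CPM), Vip (2025 CPM) and L5 ET nuclei (1998 CPM), which overlapped, and it was 107 CPM in L5 IT nuclei. Robo2 ran from 28.1 CPM in oligodendrocyte precursor nuclei to 1372 CPM in Lamp5 nuclei, with 10 of the 12 neuronal classes at or above 737 CPM. Robo3 (chr9:37415669-37433246), a Robo that lowers the Slit response of crossing axons in the embryonic spinal cord, was highest in L2/3 IT nuclei, at 55.1 ± 3.47 CPM (lowest 51.7, median 54.5, highest 61), a log2 difference from the other classes of 4.34 ± 0.10 (edgeR, adjusted p = 5.11e-71). L6 IT at 48.6 CPM and L5 ET at 32.4 CPM followed, and every GABAergic class was at or under 1.03 CPM. Robo4 (chr9:37401897-37415115), the endothelial Robo, was at 92.3 ± 16.4 CPM (lowest 79, median 86.9, highest 124) in endothelial nuclei and at most 0.452 CPM elsewhere, with 0 UMIs in 7 classes. It passed the filter on low counts only through endothelial nuclei, so no test of that class is given. Robo3 and Robo4 are neighbours on chromosome 9, and their highest classes differed. Of the Slit tests 39 of 57 were called, and of the Robo tests, those of Robo4 included, 42 of 76, beside 23.1% of all gene by class tests.

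**Figure D2:**
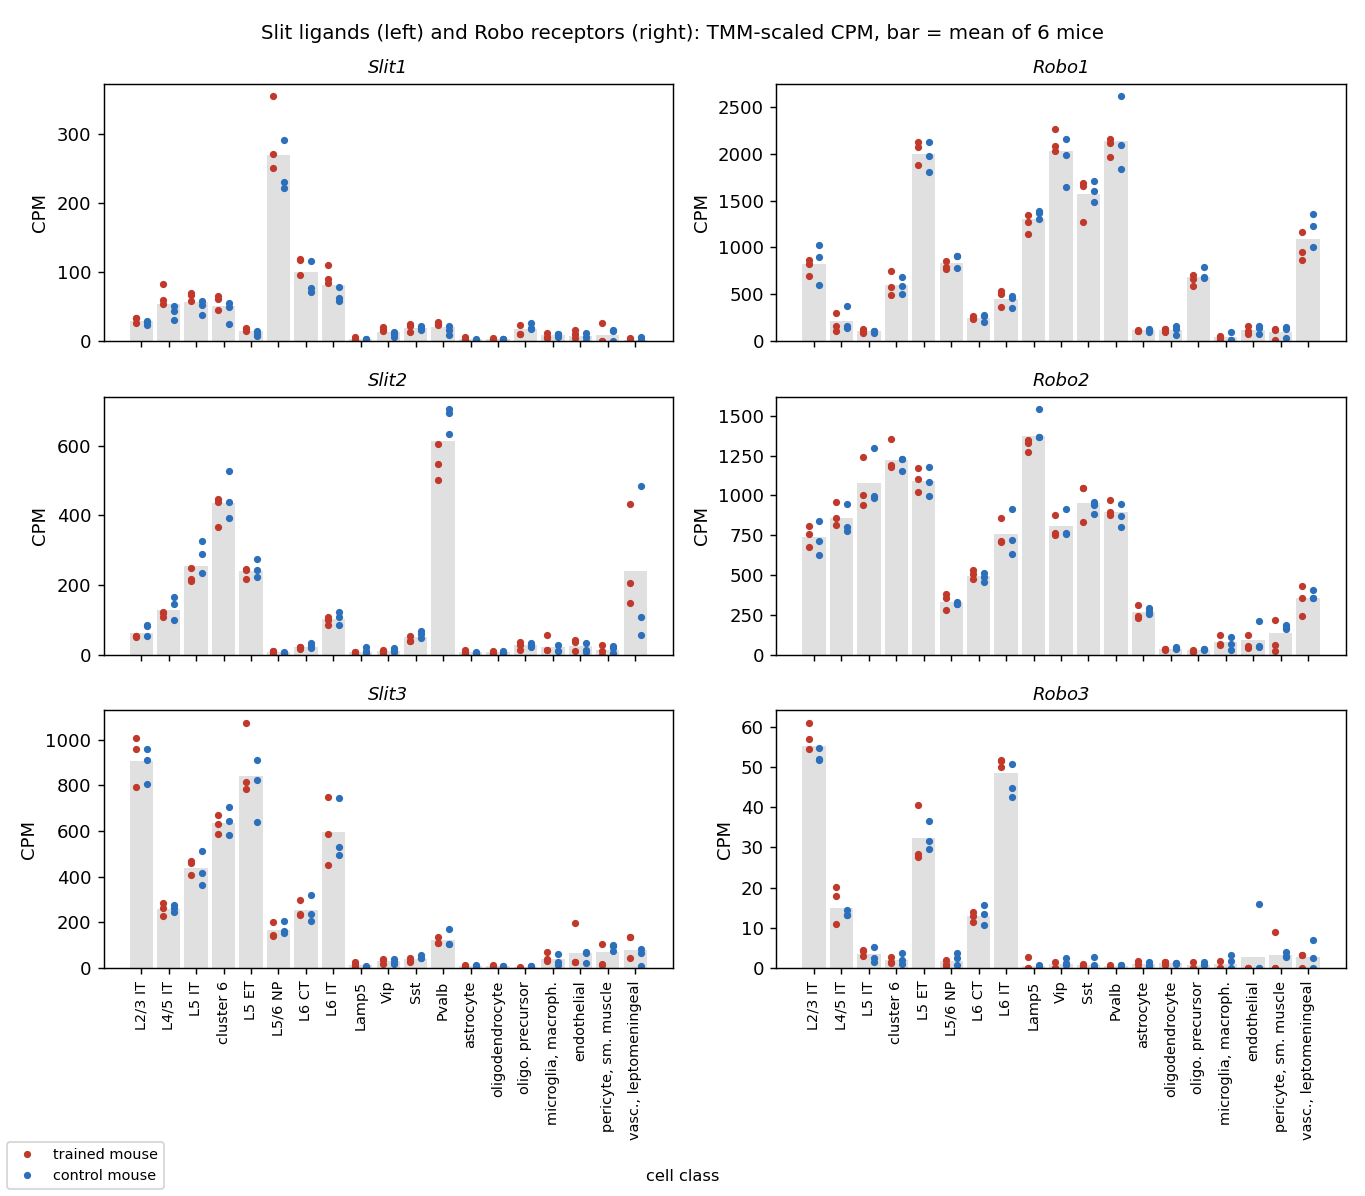
Levels of Slit1 to Slit3 and Robo1 to Robo3 (TMM-scaled CPM, y axis) in each cell class (x axis), with 1 point per mouse, trained and control mice in different colours. Grey bars are means of 6 mice. Slit1 peaks in L5/6 NP, Slit2 in Pvalb, Slit3 in L2/3 IT and L5 ET, and Robo3 in L2/3 IT and L6 IT nuclei.

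Netrin-1 transcripts were concentrated in the vessel wall, in precursors and in 1 neuron class, and were at the bottom of their range in IT neurons. Ntn1 (chr11:68209364-68400823) was highest in pericyte and smooth muscle nuclei, at 218 ± 22.9 CPM (lowest 189.7, median 211, highest 246), a log2 difference from the other classes of 5.74 ± 0.18 (edgeR, adjusted p = 1.46e-57). Oligodendrocyte precursor nuclei followed at 178 ± 24.2 CPM, with an overlapping range, then L5/6 NP at 95.6 ± 14.1 CPM. The 4 named IT classes were at 0.415 to 0.709 CPM. Ntn4 (chr10:93640681-93747207), a netrin of basement membranes, was at 84.2 ± 7.96 CPM (lowest 74.3, median 84.8, highest 96.4) in Pvalb nuclei and at 83.4 ± 29.9 CPM (lowest 44.3, median 77.6, highest 133) in pericyte and smooth muscle nuclei. Those ranges overlapped, and the Pvalb value made a log2 difference from the other classes of 3.73 ± 0.09 (edgeR, adjusted p = 1.84e-71). Ntn5 was at most 7.02 CPM, in L6 IT nuclei. The netrin-Gs, lipid-anchored relatives that act at synapses, peaked apart: Ntng1 in L5 ET (385 ± 46.6 CPM) and Ntng2 in L6 IT nuclei (129 ± 20.1 CPM). Of the netrin tests 61 of 95 were called, beside 23.1% of all gene by class tests.

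The netrin receptors peaked in different classes. Dcc was highest in L5/6 NP nuclei, at 3536 ± 328 CPM (lowest 3132, median 3563, highest 3965), a log2 difference from the other classes of 3.20 ± 0.09 (edgeR, adjusted p = 2.60e-61), and no mouse of the next class, oligodendrocyte precursors at 1745 ± 150.0 CPM, reached that range. L5 ET nuclei held 122 CPM of Dcc, the lowest neuronal value. Unc5d (chr8:28646717-29219636), which also binds the adhesion protein Flrt2, was highest in L4/5 IT nuclei, at 1674 ± 412 CPM (lowest 1322, median 1529, highest 2358), a log2 difference from the other classes of 3.80 ± 0.08 (edgeR, adjusted p = 4.28e-75). It was 16.7 CPM in L6 CT and 28.1 CPM in L5 ET nuclei. The annotation places the transcript Svet1 within the Unc5d gene on the same strand, so reads of that stretch cannot be told apart. Unc5c was highest in Lamp5 nuclei (1586 ± 194 CPM) and Unc5a in L6 IT nuclei (57.7 ± 6.63 CPM).

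Unc5b, the netrin receptor best known from vessels, was highest in oligodendrocyte nuclei, at 83.6 ± 15.4 CPM (lowest 59.9, median 83.6, highest 105), a log2 difference from the other classes of 5.78 ± 0.12 (edgeR, adjusted p = 1.68e-75). Vip nuclei (30.0 ± 10.8 CPM), pericyte and smooth muscle nuclei (28.4 ± 8.59 CPM) and endothelial nuclei (20.7 ± 7.11 CPM) followed, none of them reaching the oligodendrocyte range. In the 4 named IT classes Unc5b was at most 0.341 CPM. Its ligand gene Ntn1 was 1.04 ± 1.10 CPM in the same oligodendrocyte nuclei. Of the Dcc and Unc5 tests 62 of 95 were called, beside 23.1% of all gene by class tests.

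**Figure D3:**
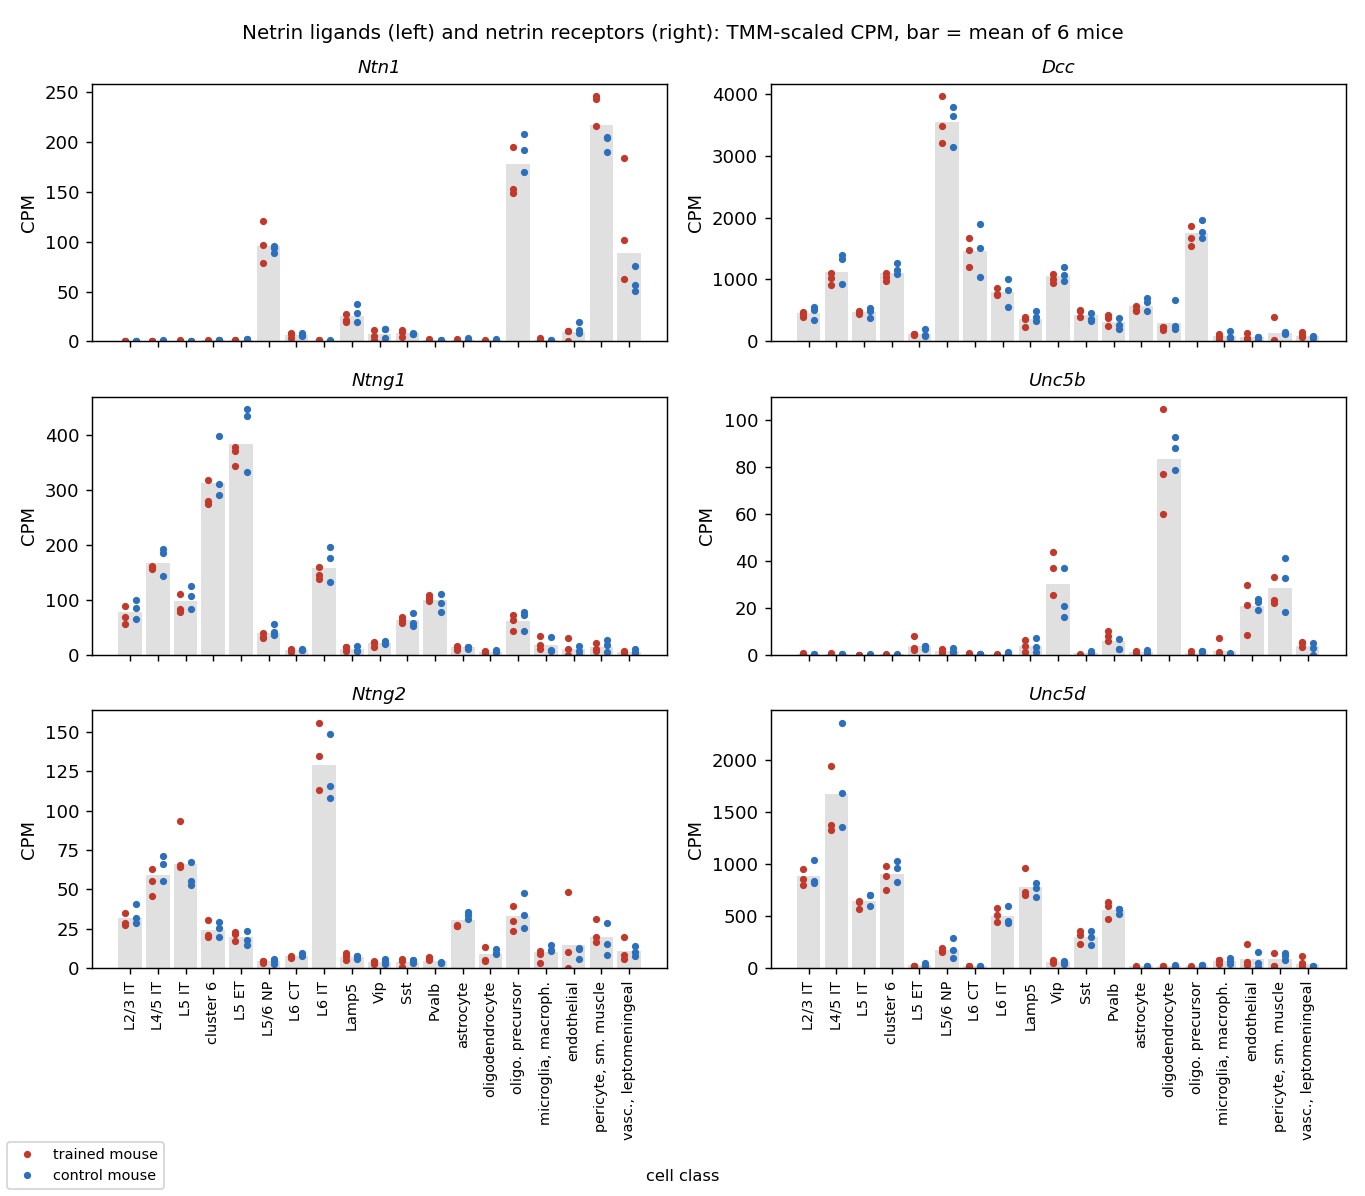
Levels of Ntn1, the netrin-G genes Ntng1 and Ntng2, and the netrin-1 receptor genes Dcc, Unc5b and Unc5d (TMM-scaled CPM, y axis) in each cell class (x axis). There is 1 point per mouse, and grey bars are means of 6 mice. Ntn1 peaks in pericytes and oligodendrocyte precursors, Ntng2 in L6 IT, Dcc in L5/6 NP, Unc5b in oligodendrocytes and Unc5d in L4/5 IT nuclei.

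The class 3 semaphorins, secreted repellents, were highest in endothelial, leptomeningeal or precursor nuclei, apart from Sema3e. Sema3c (chr5:17574281-17730268) was highest in endothelial nuclei, at 797 ± 275 CPM (lowest 375, median 814, highest 1169), a log2 difference from the other classes of 6.24 ± 0.14 (edgeR, adjusted p = 6.10e-71). Vip (253 ± 46.6 CPM) and Lamp5 (209 ± 24.8 CPM) followed, while Pvalb and Sst were at 2.74 and 9.48 CPM. In vascular and leptomeningeal nuclei Sema3c ran from 0 to 128 CPM among mice. Sema3d (chr5:12383385-12588948) was highest in oligodendrocyte precursor nuclei, at 393 ± 54.5 CPM (lowest 322, median 389, highest 484), a log2 difference from the other classes of 6.04 ± 0.09 (edgeR, adjusted p = 6.00e-90). Vascular and leptomeningeal nuclei had 274 ± 61.8 CPM of it, an overlapping range, and no other class passed 17.2 CPM.

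Sema3g, secreted by arterial endothelium, was at 32.8 ± 21 CPM (lowest 9.88, median 28.8, highest 69.4) in endothelial nuclei and at most 0.548 CPM in any other class, with 0 UMIs in 6 of them. Sema3a, the classical growth cone collapsing factor, was highest in vascular and leptomeningeal nuclei at 337 ± 44.3 CPM, and among neurons in L4/5 IT (133 CPM) and Sst (123 CPM). Sema3e, which binds Plxnd1 without a neuropilin, was highest in L5/6 NP nuclei at 306 ± 46.5 CPM and 4.96 CPM in L2/3 IT nuclei. Sema3b (7.51 CPM, vascular and leptomeningeal) and Sema3f (7.35 CPM, endothelial) were low throughout. Of the class 3 tests, those of Sema3b and Sema3g included, 74 of 133 were called, beside 23.1% of all gene by class tests.

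Class 4 semaphorins are transmembrane ligands, mostly of B-type plexins. Sema4b (chr7:80186841-80226527) was highest in astrocyte nuclei, at 121 ± 17.7 CPM (lowest 93.3, median 119, highest 147), a log2 difference from the other classes of 3.19 ± 0.07 (edgeR, adjusted p = 6.25e-71), and no other class reached that range. Sema4g (chr19:44989101-45003397) marked interneurons: Pvalb nuclei had 36.8 ± 3.90 CPM (lowest 31.1, median 37.3, highest 42.4), a log2 difference from the other classes of 3.55 ± 0.10 (edgeR, adjusted p = 1.98e-61), and Vip, Sst and Lamp5 nuclei 27, 19.6 and 18.9 CPM. L5/6 NP was the glutamatergic exception at 15.2 CPM, the other 7 being at 0.377 to 2.67 CPM. Sema4a led in astrocytes (64.4 CPM), Sema4c in pericytes and smooth muscle (23.6 CPM), Sema4d in oligodendrocytes (106 CPM) and microglia (104 CPM), and Sema4f in L4/5 IT (27 CPM). Of the class 4 tests 52 of 114 were called, beside 23.1% of all gene by class tests.

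Classes 5 to 7 hold transmembrane semaphorins and the lipid-anchored Sema7a. Sema5a (chr15:32244810-32696341) was highest in Lamp5 nuclei, at 422 ± 77.4 CPM (lowest 285, median 424, highest 500.5), a log2 difference from the other classes of 4.38 ± 0.08 (edgeR, adjusted p = 5.63e-84). Oligodendrocyte precursor (244 ± 33.4 CPM) and L6 CT nuclei (225 ± 36.9 CPM) followed, and the L2/3 IT, L4/5 IT and L5 IT classes were at 1.78 to 5.57 CPM. Sema5b (chr16:35541145-35664732) was highest in oligodendrocyte precursor nuclei, at 243 ± 37.9 CPM (lowest 208, median 227, highest 309), a log2 difference from the other classes of 5.29 ± 0.12 (edgeR, adjusted p = 8.61e-73), with Vip (71.7 CPM) and L5/6 NP (66.3 CPM) next and no overlap of ranges. Both class 5 genes thus had a precursor, an interneuron and a deep-layer component. Sema6d was highest in precursors (943 ± 105 CPM), Sema6a in oligodendrocytes (249.9 ± 56.6 CPM) and endothelial nuclei (227 ± 45.2 CPM), and Sema7a, a ligand of Plxnc1, in endothelial nuclei (267 ± 68.7 CPM). Sema6b and Sema6c stayed at or under 30.4 CPM. Of the class 5 to 7 tests 67 of 133 were called, beside 23.1% of all gene by class tests.

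Among the receptors of semaphorins, each B-type plexin peaked in a different glial class, while the A-type plexins were divided between neurons and other cells. Plxnb3 (chrX:73757090-73772514), a receptor for Sema5a, was at 143 ± 15.8 CPM (lowest 119, median 147, highest 164) in oligodendrocyte nuclei, a log2 difference from the other classes of 7.65 ± 0.10 (edgeR, adjusted p = 2.99e-98). Precursors had 72.6 ± 16 CPM, without overlap, and all other classes at most 3.27 CPM. Plxnb1 (chr9:109095389-109119917), the receptor for Sema4d, was highest in astrocyte nuclei, at 98.6 ± 7.16 CPM (lowest 86.7, median 98.6, highest 109), a log2 difference from the other classes of 5.18 ± 0.09 (edgeR, adjusted p = 5.00e-86), and at most 4.94 CPM in neurons. Plxnb2 was highest in microglia and macrophage nuclei (87.5 ± 20.9 CPM).

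Plxna4 led in Pvalb nuclei (711 ± 71 CPM), Plxna2 in vascular and leptomeningeal nuclei (717 ± 225 CPM), Plxna1 in cluster 6 (26.3 ± 4.79 CPM) and Plxna3 in oligodendrocyte precursors (16.3 ± 4.19 CPM). Plxnc1 was highest in Pvalb (95 CPM) and Plxnd1 in cluster 6 (61.7 CPM), against 21.3 CPM in the second, endothelial nuclei. Of the plexin tests 79 of 171 were called, beside 23.1% of all gene by class tests. The neuropilins, co-receptors of class 3 semaphorins and of vascular growth factors, differed in deep-layer neurons. Nrp1 (chr8:128358604-128503363) was highest in L6 CT nuclei, at 335 ± 70.5 CPM (lowest 272, median 299, highest 446), a log2 difference from the other classes of 3.39 ± 0.07 (edgeR, adjusted p = 1.03e-76), with L5 ET at 289 CPM in an overlapping range. Nrp2 (chr1:62703285-62818695) was highest in vascular and leptomeningeal nuclei, at 133 ± 44 CPM (lowest 105, median 117, highest 222), a log2 difference from the other classes of 3.62 ± 0.14 (edgeR, adjusted p = 1.27e-48), and was 2.83 CPM in L6 CT and 1.26 CPM in L5 ET nuclei. Of the neuropilin tests 25 of 38 were called, beside the same 23.1% of all tests.

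Among the ephrins, the lipid-anchored Efna1 (chr3:89271733-89281142) was highest in endothelial nuclei, at 24.3 ± 12.2 CPM (lowest 11.2, median 19.8, highest 41), a log2 difference from the other classes of 4.77 ± 0.47 (edgeR, adjusted p = 1.10e-16), and overlapped oligodendrocytes at 14.5 ± 3.91 CPM. Efna4 (chr3:89333390-89338028) was low, at 4.02 ± 3.10 CPM (lowest 0, median 4.54, highest 7.03) in vascular and leptomeningeal nuclei and at most 0.933 CPM elsewhere, and was not tested. Efna5 was broad in glutamatergic neurons, from 468 CPM in L5/6 NP to 1461 CPM in cluster 6. Efna2 (17 CPM, precursors) and Efna3 (15.2 CPM, L4/5 IT) were low everywhere. Of the Efna tests 35 of 76 were called, beside 23.1% of all gene by class tests.

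The transmembrane Efnb3 (chr11:69554092-69560205), which keeps corticospinal axons from recrossing the midline of the mouse spinal cord, was highest in oligodendrocyte nuclei, at 293 ± 37.5 CPM (lowest 237, median 294, highest 334), a log2 difference from the other classes of 5.52 ± 0.07 (edgeR, adjusted p = 9.41e-103). The next classes, vascular and leptomeningeal and L5/6 NP, were at 30.0 and 29.6 CPM, far outside that range. Efnb1 (chrX:99136130-99148991) was highest in vascular and leptomeningeal nuclei, at 22.8 ± 3.62 CPM (lowest 18.3, median 22.5, highest 28.3), a log2 difference from the other classes of 2.36 ± 0.24 (edgeR, adjusted p = 6.69e-16), with ranges overlapping those of endothelial nuclei (10.2 ± 9.46 CPM). Efnb2 was highest in L4/5 IT nuclei (67.6 ± 7.82 CPM) and overlapped vascular and leptomeningeal nuclei (57.2 ± 16.3 CPM). Of the Efnb tests 27 of 57 were called, beside 23.1% of all gene by class tests.

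Most Epha receptor genes peaked in neurons, with vascular exceptions. Epha4 (chr1:77367185-77515088), which binds ephrins of both classes, was highest in cluster 6 nuclei, at 699 ± 37.2 CPM (lowest 651, median 695, highest 761), a log2 difference from the other classes of 2.69 ± 0.05 (edgeR, adjusted p = 3.12e-84), then in L4/5 IT (439 CPM) and L5 IT nuclei (432 CPM) without overlap. Epha2 (chr4:141301240-141329384) was vascular, at 17.5 ± 7.79 CPM (lowest 8.13, median 18.6, highest 26.6) in pericyte and smooth muscle nuclei and 12 ± 14 CPM in endothelial nuclei, with 0 UMIs in 9 classes. Its levels are given with no test. Epha6 led in L5 ET (1516 ± 214 CPM), Epha10, which lacks kinase activity, also in L5 ET (228 ± 51.2 CPM), and Epha3 in Lamp5 nuclei (336 ± 38.1 CPM). Epha5 and Epha7 were highest in L5/6 NP (805 and 327 CPM) and overlapped the next class. Epha8 was at most 4.73 CPM and Epha1 at most 2.06 CPM. Of the Epha tests 95 of 152 were called, beside 23.1% of all gene by class tests.

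Ephb1 (chr9:101922128-102354693) was highest in L6 CT nuclei, at 333 ± 60.3 CPM (lowest 253, median 326, highest 420.4), a log2 difference from the other classes of 3.17 ± 0.08 (edgeR, adjusted p = 1.96e-67). Astrocyte (285 ± 44.4 CPM), L5 ET (281 ± 58.9 CPM) and oligodendrocyte nuclei (226 ± 66.8 CPM) followed. Ephb1 was thus high in L6 CT and L5 ET neurons and in astrocytes and oligodendrocytes at once. It was low in the other glia, at 19.8 CPM in oligodendrocyte precursor and 9.09 CPM in microglia and macrophage nuclei, its lowest class. Ephb4 (chr5:137350109-137378669), the venous partner of Efnb2, was highest in endothelial nuclei, at 28 ± 15 CPM (lowest 0, median 31.8, highest 41), and overlapped vascular and leptomeningeal nuclei at 15.7 ± 3.93 CPM (edgeR, adjusted p = 8.17e-26 for endothelial against the other classes). Pvalb, Vip and microglia nuclei held 0 UMIs of it. Ephb2 and the kinase-inactive Ephb6 were highest in L6 CT nuclei as well (125 and 59.7 CPM), Ephb2 level with L5 ET (124 CPM). Ephb3 was at most 24.3 CPM, in astrocytes. Of the Ephb tests 48 of 95 were called, beside 23.1% of all gene by class tests.

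Classes that share a layer, a lineage or a vessel wall were then compared directly, as 8 contrasts of the same fit with 212 calls among members and 14.7% of all gene tests called. Between the glutamatergic and the GABAergic classes, 21 of 68 members were higher in the glutamatergic mean (9.37% of all genes) and 14 were lower (8.41% of all genes). Robo3 was at 21.4 CPM over the 8 glutamatergic classes (1.77 to 55.1), against 0.714 CPM over the 4 GABAergic classes (0.387 to 1.03), a log2 difference of 3.93 ± 0.22 (edgeR, adjusted p = 1.10e-33). Slit3 was at 512 CPM over the 8 glutamatergic classes (168 to 906), against 50.9 CPM over the 4 GABAergic classes (11.2 to 122), a difference of 3.64 ± 0.09 (edgeR, adjusted p = 1.54e-69). Nrp1 was at 131 CPM over the 8 glutamatergic classes (12.4 to 335), against 16.8 CPM over the 4 GABAergic classes (3.13 to 48.9), a difference of 2.98 ± 0.10 (edgeR, adjusted p = 1.23e-56). For Robo3 and Slit3 every glutamatergic class mean stood above every GABAergic one, and for Nrp1 the Vip mean lay above those of L2/3 IT, L4/5 IT and cluster 6. Lower in glutamatergic classes were Sema4g, at 2.65 CPM over the 8 glutamatergic classes (0.377 to 15.2), against 25.6 CPM over the 4 GABAergic classes (18.9 to 36.8), a difference of -4.54 ± 0.10 (edgeR, adjusted p = 1.16e-72), and Unc5b, at 0.825 CPM over the 8 glutamatergic classes (0.0505 to 3.75), against 10.1 CPM over the 4 GABAergic classes (0.576 to 30.0), a difference of -3.37 ± 0.34 (edgeR, adjusted p = 2.63e-16). Ntn4 was at 5.50 CPM over the 8 glutamatergic classes (0.736 to 19.5), against 36.6 CPM over the 4 GABAergic classes (8.57 to 84.2), a difference of -2.86 ± 0.12 (edgeR, adjusted p = 1.78e-43). Sema4g had every glutamatergic class mean under every GABAergic one, and Unc5b and Ntn4 did not.

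L5 ET neurons, which project to brainstem and spinal cord, and L5 IT neurons, which project within the telencephalon, shared a layer and differed in guidance receptors. At the same rule, 17 of 68 members were higher in L5 ET than in L5 IT nuclei, where 7.23% of all genes were, and 17 were lower, where 6.17% of all genes were. Robo1 was at 1998 CPM (1808 to 2128, median 2023) in L5 ET nuclei, against 107 CPM (87.6 to 132, median 109) in L5 IT nuclei, a log2 difference of 4.22 ± 0.16 (edgeR, adjusted p = 1.86e-47). Unc5d was at 28.1 CPM (18 to 46.7, median 22.8) in L5 ET nuclei, against 641 CPM (564 to 703, median 640.2) in L5 IT nuclei, a log2 difference of -4.55 ± 0.18 (edgeR, adjusted p = 1.49e-46). The Slit receptor Robo1 was thus high in L5 ET and the netrin and Flrt receptor Unc5d in L5 IT, with no overlap among 6 mice in either. Sema6a was at 46 CPM (38.7 to 53.1, median 45.6) in L5 ET nuclei, against 2.86 CPM (2.28 to 3.74, median 2.89) in L5 IT nuclei, a log2 difference of 3.99 ± 0.17 (edgeR, adjusted p = 1.96e-43). Plxnd1 was at 1.55 CPM (1.08 to 2.14, median 1.43) in L5 ET nuclei, against 20.2 CPM (18 to 23.7, median 19.7) in L5 IT nuclei, a log2 difference of -3.78 ± 0.23 (edgeR, adjusted p = 6.08e-30). Plxnd1 is the receptor of Sema3e, whose own level was 181 CPM in L5 ET and 112 CPM in L5 IT nuclei. Ntn5 was at 0.374 CPM (0 to 0.723, median 0.408) in L5 ET nuclei, against 3.82 CPM (1.82 to 4.74, median 4.34) in L5 IT nuclei, a log2 difference of -3.04 ± 0.44 (edgeR, adjusted p = 3.01e-09). Unc5b had 96 UMIs in L5 ET and 2 UMIs in L5 IT nuclei over all mice, a ratio of rates of 62 (95% exact interval 16.7 to 519, counting error only).

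L6 CT neurons, which project to thalamus, differed from L6 IT neurons in Unc5d, Sema5a and the netrin-Gs. In this pair, 12 of 68 members were higher in L6 CT than in L6 IT nuclei, where 4.29% of all genes were, and 16 were lower, where 5.87% of all genes were. Unc5d was at 16.7 CPM (12.3 to 24.2, median 15.6) in L6 CT nuclei, against 500.5 CPM (435 to 597, median 479.6) in L6 IT nuclei, a log2 difference of -4.92 ± 0.18 (edgeR, adjusted p = 2.26e-49). Ntng1 was at 8.57 CPM (4.89 to 11.3, median 8.59) in L6 CT nuclei, against 158 CPM (133 to 197, median 152) in L6 IT nuclei, a log2 difference of -4.20 ± 0.13 (edgeR, adjusted p = 1.06e-56). Ntng2 was at 7.87 CPM (6.52 to 9.62, median 7.55) in L6 CT nuclei, against 129 CPM (108 to 156, median 125) in L6 IT nuclei, a log2 difference of -4.0 ± 0.11 (edgeR, adjusted p = 9.89e-61). All 3 genes were lower in L6 CT nuclei in every mouse. Sema5a was at 225 CPM (157 to 269, median 230.3) in L6 CT nuclei, against 11.5 CPM (7.33 to 16.5, median 11.5) in L6 IT nuclei, a log2 difference of 4.30 ± 0.14 (edgeR, adjusted p = 5.97e-56). Ntn1 was at 6.60 CPM (3.45 to 8.64, median 6.90) in L6 CT nuclei, against 0.709 CPM (0 to 1.46, median 0.730) in L6 IT nuclei, a log2 difference of 3.29 ± 0.35 (edgeR, adjusted p = 9.87e-15). Both were higher in L6 CT without overlap. Sema3b had 17 UMIs in L6 CT and 0 in L6 IT nuclei, at least 3.48-fold higher against a floor of 3 UMIs over the 6 L6 IT sums.

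Within the upper layers, 9 of 68 members were higher in L2/3 IT than in L4/5 IT nuclei, where 6.06% of all genes were, and 12 were lower, where 3.86% of all genes were. Epha3 was at 106 CPM (81.8 to 175, median 91.9) in L2/3 IT nuclei, against 14.5 CPM (10.8 to 24.1, median 13.3) in L4/5 IT nuclei, a log2 difference of 2.88 ± 0.11 (edgeR, adjusted p = 8.17e-46). Nrp2 was at 29.1 CPM (23.2 to 35.7, median 28.1) in L2/3 IT nuclei, against 5.16 CPM (2.89 to 8.78, median 4.82) in L4/5 IT nuclei, a log2 difference of 2.49 ± 0.16 (edgeR, adjusted p = 8.26e-28). Robo1 was at 819 CPM (599 to 1027, median 844) in L2/3 IT nuclei, against 212 CPM (111 to 376, median 166) in L4/5 IT nuclei, a log2 difference of 1.99 ± 0.15 (edgeR, adjusted p = 1.55e-23). These receptors were higher in L2/3 IT nuclei of all 6 mice than in any L4/5 IT sum. Ntn4 was at 4.63 CPM (3.06 to 6.93, median 4.11) in L2/3 IT nuclei, against 19.5 CPM (16 to 26.5, median 18.4) in L4/5 IT nuclei, a log2 difference of -2.07 ± 0.15 (edgeR, adjusted p = 2.50e-25). Unc5c was at 234 CPM (192 to 275, median 237) in L2/3 IT nuclei, against 783 CPM (712 to 893, median 773) in L4/5 IT nuclei, a log2 difference of -1.75 ± 0.13 (edgeR, adjusted p = 1.04e-22). Sema3c was at 3.61 CPM (2.52 to 5.72, median 3.24) in L2/3 IT nuclei, against 11.8 CPM (7.75 to 19.2, median 11.2) in L4/5 IT nuclei, a log2 difference of -1.70 ± 0.22 (edgeR, adjusted p = 1.35e-10). The last 3 were lower in L2/3 IT nuclei, again without overlap.

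Pvalb and Sst interneurons, both from the medial ganglionic eminence, were set apart by Slit2 and class 5 and 6 semaphorins. In Pvalb against Sst, 6 of 68 members were higher in Pvalb than in Sst nuclei, where 4.66% of all genes were, and 12 were lower, where 7.8% of all genes were. Slit2 was at 615 CPM (500.4 to 705, median 621) in Pvalb nuclei, against 51.4 CPM (39.7 to 68, median 50.5) in Sst nuclei, a log2 difference of 3.57 ± 0.16 (edgeR, adjusted p = 1.53e-40). Sema5a was at 49.8 CPM (39.3 to 63.1, median 47.5) in Pvalb nuclei, against 3.91 CPM (1.66 to 6.71, median 4.01) in Sst nuclei, a log2 difference of 3.60 ± 0.21 (edgeR, adjusted p = 1.92e-32). Unc5b was at 5.91 CPM (2.34 to 10.2, median 6.18) in Pvalb nuclei, against 0.576 CPM (0 to 1.66, median 0.443) in Sst nuclei, a log2 difference of 3.23 ± 0.44 (edgeR, adjusted p = 3.31e-10). None of these ranges overlapped. Sema6d was at 68.5 CPM (42.4 to 100.0, median 72.3) in Pvalb nuclei, against 570.0 CPM (459.6 to 653, median 578) in Sst nuclei, a log2 difference of -3.07 ± 0.12 (edgeR, adjusted p = 5.31e-47). Ntn1 was at 1.01 CPM (0.334 to 2.13, median 0.868) in Pvalb nuclei, against 8.02 CPM (3.84 to 11.6, median 8.15) in Sst nuclei, a log2 difference of -3.01 ± 0.38 (edgeR, adjusted p = 3.76e-11). Sema3f had 2 UMIs in Pvalb and 32 in Sst nuclei, a ratio of rates of 0.0575 (95% exact interval 0.00668 to 0.225, counting error only).

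Vip and Lamp5 interneurons, both largely from the caudal ganglionic eminence, differed in class 5 semaphorins, Unc5 receptors and Nrp1. For this pair, 11 of 68 members were higher in Vip than in Lamp5 nuclei, where 6.07% of all genes were, and 9 were lower, where 4.28% of all genes were. Sema5b was at 71.7 CPM (54.4 to 86.5, median 72.6) in Vip nuclei, against 3.52 CPM (0.873 to 5.49, median 4.51) in Lamp5 nuclei, a log2 difference of 4.31 ± 0.27 (edgeR, adjusted p = 1.57e-28). Unc5b was at 30.0 CPM (16.2 to 43.9, median 31.2) in Vip nuclei, against 3.71 CPM (0.957 to 7.19, median 3.48) in Lamp5 nuclei, a log2 difference of 2.86 ± 0.29 (edgeR, adjusted p = 2.37e-15). Nrp1 was at 48.9 CPM (41.3 to 52.5, median 49.4) in Vip nuclei, against 10.6 CPM (5.74 to 14, median 10.9) in Lamp5 nuclei, a log2 difference of 2.19 ± 0.25 (edgeR, adjusted p = 3.79e-13). Each was higher in Vip nuclei of every mouse. Unc5d was at 60.2 CPM (43.2 to 74.8, median 64.6) in Vip nuclei, against 777 CPM (681 to 959.8, median 749) in Lamp5 nuclei, a log2 difference of -3.68 ± 0.19 (edgeR, adjusted p = 1.39e-36). Unc5c was at 331 CPM (296 to 398, median 323) in Vip nuclei, against 1586 CPM (1347 to 1829.7, median 1584) in Lamp5 nuclei, a log2 difference of -2.26 ± 0.14 (edgeR, adjusted p = 1.47e-28). Sema5a was at 95.8 CPM (80.9 to 126, median 94.3) in Vip nuclei, against 422 CPM (285 to 500.5, median 424) in Lamp5 nuclei, a log2 difference of -2.13 ± 0.12 (edgeR, adjusted p = 1.29e-32). Unc5b was thus on the Vip side and Unc5c and Unc5d on the Lamp5 side.

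**Figure D4:**
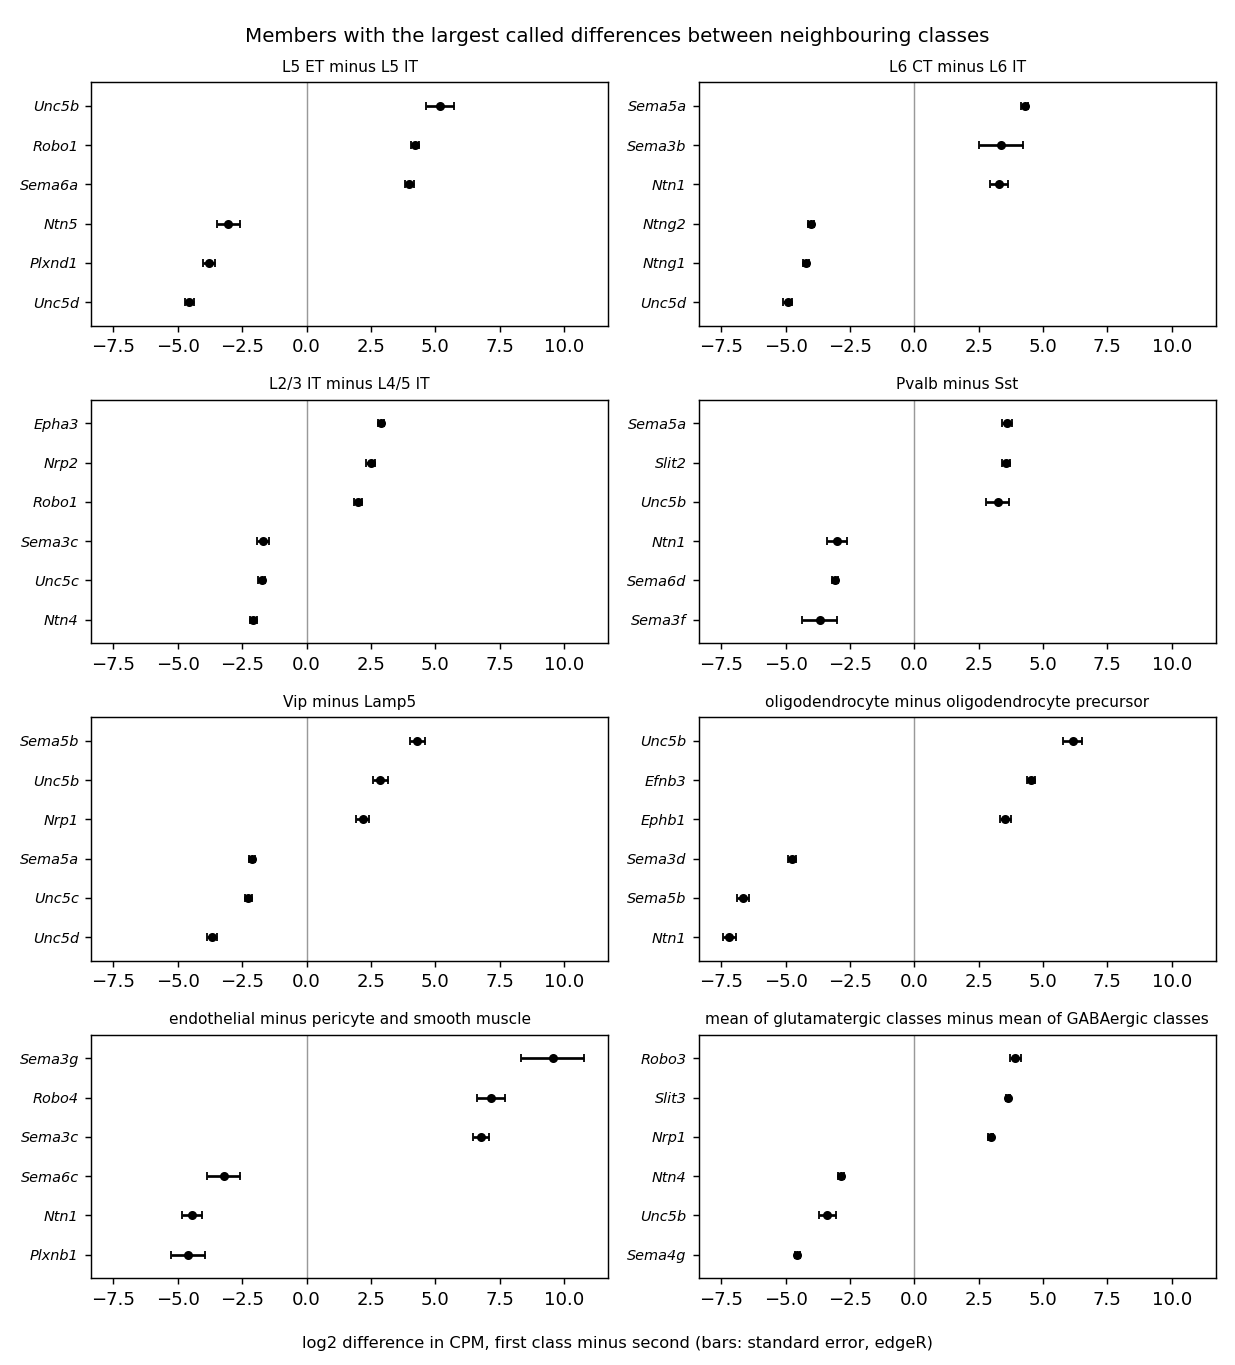
Log2 differences in CPM (x axis, first class minus second, bars are edgeR standard errors) of the members with the 3 largest called differences each way in 8 contrasts between neighbouring classes. Points right of 0 are higher in the first class of the panel title, such as Robo1 in L5 ET, and points left of 0 lower, such as Unc5d. Values for genes with 3 UMIs or fewer in a class depend on the prior count of the fit. Robo4 and Sema3g in the endothelial panel passed the filter on low counts only through endothelial nuclei, so their points are no test.

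Oligodendrocyte nuclei differed from their precursors mainly by lower levels of guidance genes. Here, 6 of 68 members were higher in oligodendrocyte than in oligodendrocyte precursor nuclei, where 10.7% of all genes were, and 31 were lower, where 18.6% of all genes were. Ntn1 was at 1.04 CPM (0 to 2.76, median 0.959) in oligodendrocyte nuclei, against 178 CPM (149 to 208, median 181) in oligodendrocyte precursor nuclei, a log2 difference of -7.18 ± 0.26 (edgeR, adjusted p = 2.85e-51). Sema5b was at 2.18 CPM (0.803 to 5.12, median 1.57) in oligodendrocyte nuclei, against 243 CPM (208 to 309, median 227) in oligodendrocyte precursor nuclei, a log2 difference of -6.65 ± 0.22 (edgeR, adjusted p = 3.78e-54). Sema3d was at 14.6 CPM (9.61 to 20.9, median 14.6) in oligodendrocyte nuclei, against 393 CPM (322 to 484, median 389) in oligodendrocyte precursor nuclei, a log2 difference of -4.74 ± 0.14 (edgeR, adjusted p = 2.27e-58). All 3 are secreted or membrane ligands, and precursor and oligodendrocyte ranges did not overlap. Unc5b was at 83.6 CPM (59.9 to 105, median 83.6) in oligodendrocyte nuclei, against 0.920 CPM (0 to 1.55, median 1.26) in oligodendrocyte precursor nuclei, a log2 difference of 6.15 ± 0.36 (edgeR, adjusted p = 1.77e-32). Efnb3 was at 293 CPM (237 to 334, median 294) in oligodendrocyte nuclei, against 11.5 CPM (1.79 to 22.6, median 11.9) in oligodendrocyte precursor nuclei, a log2 difference of 4.53 ± 0.16 (edgeR, adjusted p = 4.19e-52). Ephb1 was at 226 CPM (152 to 309, median 207) in oligodendrocyte nuclei, against 19.8 CPM (10.7 to 28.3, median 20.3) in oligodendrocyte precursor nuclei, a log2 difference of 3.54 ± 0.22 (edgeR, adjusted p = 2.40e-30). The receptor Unc5b and its ligand gene Ntn1 therefore lay on opposite sides of this lineage.

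In the vessel wall, 12 of 68 members were higher in endothelial than in pericyte and smooth muscle nuclei, where 6.98% of all genes were, and 7 were lower, where 7.12% of all genes were. Sema3c was at 797 CPM (375 to 1169, median 814) in endothelial nuclei, against 6.78 CPM (0 to 16.4, median 7.11) in pericyte and smooth muscle nuclei, a log2 difference of 6.77 ± 0.32 (edgeR, adjusted p = 2.99e-39). Ntn1 was at 9.78 CPM (0 to 18.9, median 10.3) in endothelial nuclei, against 218 CPM (189.7 to 246, median 211) in pericyte and smooth muscle nuclei, a log2 difference of -4.43 ± 0.38 (edgeR, adjusted p = 2.73e-19). Sema3c and Ntn1 thus marked opposite layers of the wall, without overlap. Robo4 had 94 UMIs in endothelial nuclei and 1 in pericyte and smooth muscle nuclei. Sema3g had 34 UMIs in endothelial and 0 in pericyte and smooth muscle nuclei. Both are among the 12 called higher, but they passed the filter on low counts only through endothelial nuclei. Their counts are therefore given with no test, interval or fold. Plxnb1 had 2 UMIs in endothelial and 81 in pericyte and smooth muscle nuclei, a ratio of 0.0407 (95% exact interval 0.00485 to 0.152, counting error only), and Sema6c had 3 UMIs in endothelial and 46 in pericyte and smooth muscle nuclei, a ratio of 0.108 (95% exact interval 0.0214 to 0.334, counting error only). The endothelial sums were the shallowest of all classes, from 66348 UMIs in the smallest mouse, so low members were hardest to see there.

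No guidance gene passed the threshold for training in any class. Trained and control mice were compared by the edgeR quasi-likelihood test within each class, and 0 of 842 member by class tests had an adjusted p under 0.05, where 0.01% of all gene by class tests did. Those were all in astrocytes (0.162% of the genes tested there, none of them a member), and every other class had 0.0%. At an unadjusted p under 0.05 there were 68 member tests, 25 higher and 43 lower in trained mice, which is 8.08% beside 3.95% of all tests. These tests share the same 6 mice across classes. DESeq2, run as another tool on the same sums, called 1 of them, Epha7 in L5 IT nuclei (adjusted p = 0.0274), beside 0.0486% of all tests. Summed over all nuclei, 0 of 69 members passed (0.0% of all genes) and 1 had an unadjusted p under 0.05 (3.25% of all genes). The values below are those of the smallest p, and none is a called change. That choice favours groups that do not overlap, so the lack of overlap stated for them is no further support.

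L5 IT nuclei gave 4 of the 10 tests of smallest p. Efnb2 in L5 IT nuclei had 36.5, 34.2 and 29.1 CPM in trained mice 2, 4 and 6, against 50.6, 47.9 and 52.4 CPM in control mice 1, 3 and 5 (log2 difference -0.59 ± 0.12, unadjusted p = 5.47e-04, adjusted p = 0.348, edgeR). Epha7 had 97.9, 94.3 and 109.7 CPM in trained mice 2, 4 and 6, against 223, 138 and 136 CPM in control mice 1, 3 and 5 (-0.72 ± 0.17, unadjusted p = 0.00143, adjusted p = 0.424). Both genes were lower in every trained mouse than in any control mouse. Sema4a had 50.9, 51.2 and 45.5 CPM in trained mice 2, 4 and 6, against 36.2, 38.2 and 33.2 CPM in control mice 1, 3 and 5 (0.46 ± 0.12, unadjusted p = 0.00247, adjusted p = 0.514), and Sema4d had 83.2, 75.7 and 83.5 CPM in trained mice 2, 4 and 6, against 60.5, 66.3 and 57.7 CPM in control mice 1, 3 and 5 (0.39 ± 0.10, unadjusted p = 0.00278, adjusted p = 0.514). These semaphorins were higher in every trained mouse. Cell markers moved in the same sums: the L5 IT marker list summed to 338 to 397 CPM in trained and 399 to 426 CPM in control mice, the L6 CT list to 225 to 266 CPM in trained and 289.8 to 309 CPM in control mice, and the L2/3 IT list to 25.8 to 35.6 CPM in trained and 19.6 to 26.2 CPM in control mice. The part of those markers in the guidance gene values was not tested. Without control mouse 1, whose Epha7 was the highest, the difference of Epha7 was -0.45 (adjusted p = 0.301).

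Elsewhere, Sema3e in Lamp5 nuclei had 174, 194 and 242 CPM in trained mice 2, 4 and 6, against 283, 255 and 342 CPM in control mice 1, 3 and 5 (-0.53 ± 0.14, unadjusted p = 0.00108, adjusted p = 0.744, edgeR). Unc5d in L5 ET nuclei had 18, 21.1 and 21.7 CPM in trained mice 2, 4 and 6, against 24, 36.8 and 46.7 CPM in control mice 1, 3 and 5 (-0.81 ± 0.23, unadjusted p = 0.00395, adjusted p = 0.999). Slit1 in L6 IT nuclei had 90.6, 84.8 and 111 CPM in trained mice 2, 4 and 6, against 79, 63 and 58.8 CPM in control mice 1, 3 and 5 (0.49 ± 0.14, unadjusted p = 0.00455, adjusted p = 1.00). Slit1 was the gene higher in trained mice here, and the groups did not overlap in any of the 3. Epha7 in cluster 6 had 163, 132 and 147 CPM in trained mice 2, 4 and 6, against 243, 201 and 173 CPM in control mice 1, 3 and 5 (-0.48 ± 0.13, unadjusted p = 0.00418, adjusted p = 0.758), and Sema6d in oligodendrocyte nuclei had 145, 139 and 133 CPM in trained mice 2, 4 and 6, against 214, 173 and 202 CPM in control mice 1, 3 and 5 (-0.46 ± 0.14, unadjusted p = 0.00417, adjusted p = 0.988). Both were lower in each trained mouse. Efna5 in pericyte and smooth muscle nuclei had 46.6, 11.1 and 39.9 CPM in trained mice 2, 4 and 6, against 82.2, 130.0 and 131 CPM in control mice 1, 3 and 5 (-1.64 ± 0.38, unadjusted p = 0.00120, adjusted p = 1.00), lower in each trained mouse. In those sums the glutamatergic marker list came to 205 to 314 CPM in trained and 298 to 470.1 CPM in control mice, and its part in the Efna5 values, a gene of glutamatergic neurons, was not tested.

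Some members leaned the same way across classes. Epha7 had a negative trained minus control difference in 17 of 17 classes (median -0.29), Efnb2 in 16 of 17 (median -0.27) and Epha3 in 14 of 15 (median -0.26). Slit1 had a positive difference in 11 of 13 classes (median 0.37), and 6 of its tests had an unadjusted p under 0.05, the most of any member. In L4/5 IT nuclei Slit1 had 82.4, 54.4 and 59 CPM in trained mice 2, 4 and 6, against 44.5, 50.6 and 31.3 CPM in control mice 1, 3 and 5 (0.64 ± 0.20, unadjusted p = 0.0103, adjusted p = 1.00, edgeR). Classes of a mouse share its library and depth, so these counts over classes are not independent. The members named here were picked from all members for their shared sign. How often other genes share a sign across classes is not given, so the counts single out no gene. Over all nuclei, Efnb2 had 28.5, 28.3 and 24.9 CPM in trained mice 2, 4 and 6, against 32.7, 31 and 35.2 CPM in control mice 1, 3 and 5 (-0.27 ± 0.09, unadjusted p = 0.0161, adjusted p = 1.00), without overlap. Epha7 had 132, 124 and 148 CPM in trained mice 2, 4 and 6, against 202, 146 and 151 CPM in control mice 1, 3 and 5 (-0.30 ± 0.13, unadjusted p = 0.0517, adjusted p = 1.00), and Epha10 had 108, 88 and 87.6 CPM in trained mice 2, 4 and 6, against 78.2, 88.4 and 63 CPM in control mice 1, 3 and 5 (0.31 ± 0.14, unadjusted p = 0.0536, adjusted p = 1.00). In those last 2 genes the groups overlapped.

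**Figure D5:**
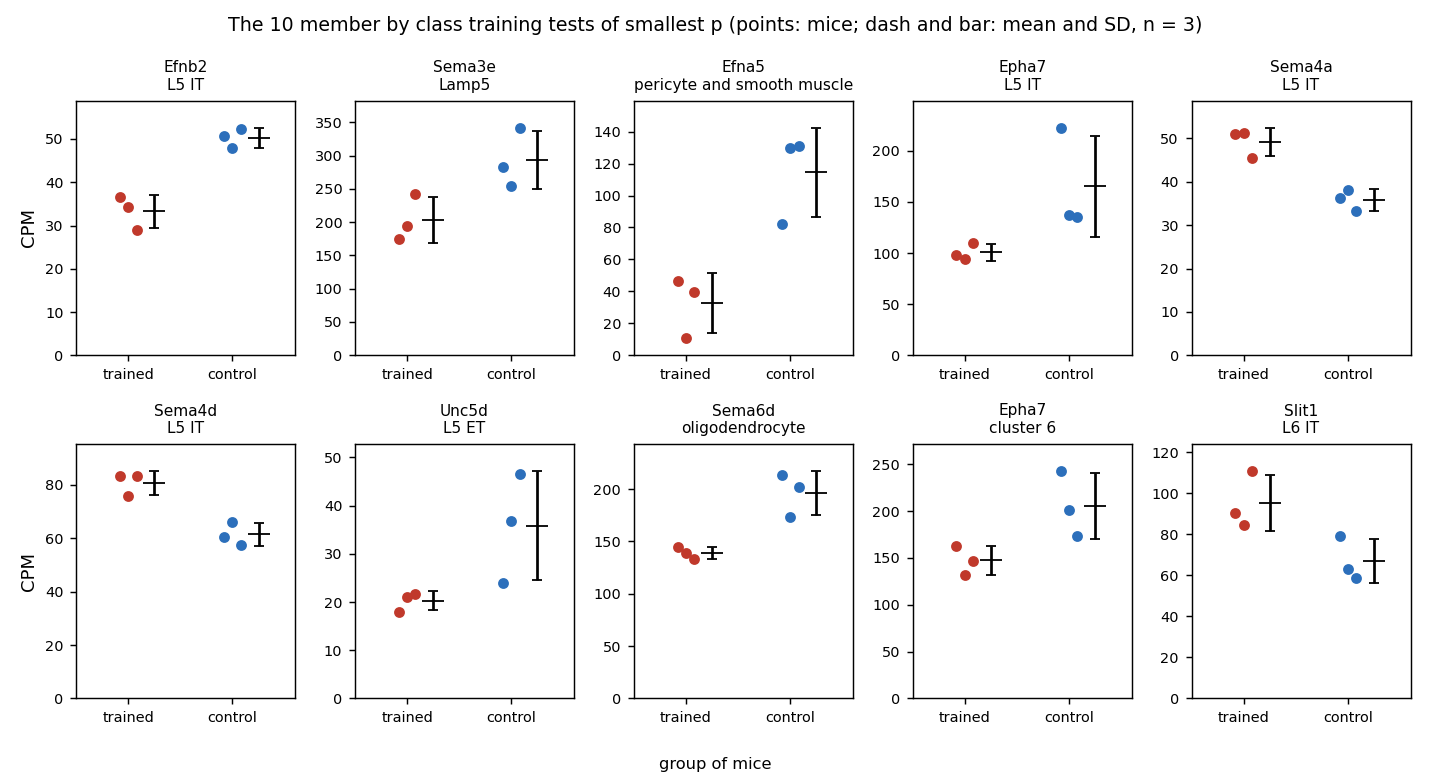
Levels (TMM-scaled CPM, y axis) of the 10 member by class tests with the smallest p for training, with 1 point per mouse and a dash and bar for the mean and SD of 3 mice, trained on the left and control on the right of each panel. The groups do not overlap in any panel, which choosing the smallest p favours, and no test passed an adjusted p of 0.05.

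The question whether a training difference itself varied between classes was addressed by an F test of all class by training terms. No member was called, with 0.65% of all genes called. An unadjusted p under 0.05 was found for 8 of 68 members, beside 7.31% of all genes. The limma-voom test of the same terms called 3 members (Sema4d, Epha4 and Nrp1), beside 5.18% of all genes. The smallest were Sema4d (unadjusted p = 0.00346, adjusted p = 0.236), Ntng2 (0.00697 and 0.329) and Sema3e (0.0114 and 0.398), all by edgeR. For Sema3e, the differences ran from -0.53 in Lamp5 to 0.56 in L5 IT, lower in trained mice in 7 classes and higher in 9. For Sema4d, they ran from -0.34 in oligodendrocyte precursor to 0.49 in Lamp5.

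The 54 other guidance genes, chosen by role outside the name rule, are further ligands and co-receptors such as Neo1, Flrt2 and L1cam, and intracellular effectors such as the Dpysl and Srgap genes. Between glutamatergic and GABAergic classes 11 of 54 were higher in the glutamatergic mean (9.37% of all genes) and 7 lower (8.41% of all genes). Ngef, an exchange factor activated by Epha4, differed by 2.38 ± 0.06 (edgeR, adjusted p = 1.15e-63) on the log2 scale and Nell2, a ligand of Robo3, by 2.08 ± 0.05 (edgeR, adjusted p = 4.55e-69). Lower were Dpysl5, by -3.35 ± 0.07 (edgeR, adjusted p = 3.51e-79), and Vav2, an effector of Eph receptors, by -3.17 ± 0.15 (edgeR, adjusted p = 2.61e-41). Between oligodendrocytes and their precursors 10 of 54 were higher in oligodendrocytes (10.7% of all genes) and 20 lower (18.6% of all genes). Cntn2, an axonal and myelin adhesion protein, differed by 5.73 ± 0.16 (edgeR, adjusted p = 4.04e-61) and Nfasc, an adhesion protein of nodes and paranodes, by 1.97 ± 0.09 (edgeR, adjusted p = 7.27e-43). Dscam, an adhesion protein and netrin receptor, differed by -6.68 ± 0.16 (edgeR, adjusted p = 3.46e-68) and Dpysl3 by -5.91 ± 0.19 (edgeR, adjusted p = 8.12e-57). For training, 0 of 861 tests of these genes passed, beside 0.01% of all gene by class tests. An unadjusted p under 0.05 (edgeR) was found in 52, which is 6.04% beside 3.95% of all tests.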

How the data were processed

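What the authors deposited is a table of raw UMI counts, genes by nuclei, in which the 2 runs (shallow and deep) of each of the 6 mice are joined. The submitters' processing notes name Cell Ranger 4.0.0 and mm10. The counting of intronic and antisense reads is not given in the sources used here. Barcode and gene lists hold no measurement.

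Nuclei needed 500 detected genes and a mitochondrial share under 5% (243 of 51926 barcodes failed), doublets were removed per mouse with Scrublet (scanpy 1.11.5), and nuclei were clustered with Leiden at resolution 1.0 without guidance genes. Clusters were named from the mean log2 fold of marker lists (minimum and lead 0.5, chosen after the clusters were seen). Classes with 20 nuclei in every mouse were summed per mouse. edgeR 4.0.16 (R 4.3.3) was run with TMM, filterByExpr and Benjamini-Hochberg adjustment over all genes (threshold 0.05), in 1 fit per class for training and 1 joint fit with mouse as a block for classes, whose common dispersion came from 1000 genes because the planned estimate was too slow. CPM values were computed from the counts and scaled by TMM and given with SD over mice, and log2 differences carry standard errors. DESeq2 1.42.0 and limma 3.58.1 were alternatives. The fits were tested on simulated data. Positions are from GENCODE M21, where 23 members overlap another gene on the same strand. Named genes were the 2 of each family with the largest gap between highest and median class (1 CPM added), the 3 largest called differences each way per pair, and the 10 training tests of smallest p. Members and lists were chosen with earlier results of these data known. Labels speak of separate animals, so the SDs and the errors of the training fits are between mice. Standard errors and p-values of the class and neighbouring-class contrasts come from the joint fit. There the residual spread of a gene is pooled over all classes and mice, so they do not measure the spread of the named class alone. Intervals and floors (3 UMIs) cover counting error only.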

Additional observations from a re-analysis of the deposited data

How the results depend on the processing

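Every named log2 difference kept its direction in every alternative value that could be computed. Of these values, 1025 stayed on the same side of the threshold, and 8, for 5 training differences, passed it: Epha7 in L5 IT and in cluster 6 nuclei, Efnb2 in L5 IT, Unc5d in L5 ET and Efna5 in pericyte and smooth muscle nuclei. For training, 11 member by class tests passed with no filter on low counts (0.215% of tests of all genes, in place of 0.01%), 1 with DESeq2 (0.0486% of all) and 3 with each mouse's median depth per nucleus as covariate (Epha7 and Epha6 in L5 IT, Epha7 in Sst nuclei, beside 0.045% of all). Leaving out 1 mouse at a time gave 0 to 7, while calls over all genes ran from 6 to 200 in place of 20. The 7 were all in pericyte and smooth muscle nuclei without trained mouse 6 (Unc5c, Unc5d, Plxna4, Slit3, Robo2, Efna5 and Dcc, lower in trained mice), where 194 of 5227 genes (3.71%) were called, and 1 call arose without control mouse 3 (Efna5 in microglia and macrophage nuclei, beside 0.141% of genes there). The interaction gave 13 members with no filter (2.54% of all genes) and 3 with limma-voom (5.18% of all genes). Without a minimum difference, 331 neighbouring-class tests were called in place of 212, and dropping that minimum can only add calls for any gene. Leaving out 1 mouse gave 686 to 706 class calls and 202 to 211 neighbouring-class calls. For the 54 other guidance genes, training gave 5 calls with no filter and 0 to 2 without 1 mouse (2 without trained mouse 6). Classes gave 845 and neighbouring classes 285 calls with no minimum difference, in place of 430 and 116. The shares of all genes called between classes at these other settings are not given. The class and neighbouring-class counts here are therefore no result about the guidance genes in particular. Their interaction gave 8 with no filter, 6 with limma-voom and 0 to 2 without 1 mouse (2 without control mouse 3). The cause of these shifts was not tested.

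No paired analysis was possible because trained and control mice share no replicate numbers. At resolution 0.5, L5 IT nuclei merged with cluster 6 and could not be fitted apart, so their results have no value there. The microglia and macrophage class at that resolution held a cluster of 485 nuclei, 404 of them from trained mouse 6. With 3 mice a group, training differences could be missed in deep classes as well as in the shallow endothelial and pericyte sums. In simulated L5 IT sums, 29% of 1.5-fold and 65.6% of 2-fold training changes were recovered at an adjusted p under 0.05 (edgeR). In simulated L2/3 IT sums these shares were 24.0% and 67.3%. In simulated pericyte and smooth muscle sums they were 0% and 2.2%. Class names were rebuilt from markers, and free RNA in the droplets was not removed.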
